A study of Caenorhabditis elegans with 3 samples.

Results

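The 5 genes described here, tatn-1, hpd-1, hgo-1, gst-42 and fah-1, encode the enzymes that break tyrosine down to fumarate and acetoacetate. They were taken by name, 5 of the 19973 protein-coding genes on the nuclear chromosomes of Caenorhabditis elegans, and all 5 were matched in the annotation. For each gene the peaks of ELT-3 were read in the promoter, the introns and the 3 kb upstream. A promoter here runs from 1000 bp before to 200 bp after any start of a coding transcript. The 3 kb upstream includes the promoter, so it also holds the 200 bp after a start, for these and for all genes. ELT-3 belongs to the GATA family of transcription factors and is best known for its role in the epidermis of the worm. It was profiled by chromatin immunoprecipitation and sequencing (ChIP-seq) in whole L1 larvae, the first larval stage, of strain OP75, whose genotype is unc-119(ed3) III; wgIs75. All libraries came from this 1 transgenic line, in which ELT-3 is stably made with GFP-FLAG fused to its C terminus. The animals were of mixed sex and unstated age. The 3 libraries formed 1 group of 2 biological replicates, with 2 technical libraries of replicate 1 and 1 of replicate 2. With 1 group there was no other condition to compare, so values are given as descriptions without tests. Whole animals were used, so the cell type in which a site was bound is not resolved, and binding of a tagged transgene product may differ from that of the untagged protein.

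Tyrosine aminotransferase, TATN-1, removes the amino group of tyrosine, and hydroxyphenylpyruvate dioxygenase, HPD-1, makes homogentisate. Homogentisate dioxygenase, HGO-1, opens the ring, GST-42, a zeta-class glutathione transferase, isomerises maleylacetoacetate, and fumarylacetoacetase, FAH-1, cleaves the product. In humans, loss of homogentisate dioxygenase causes alkaptonuria and loss of fumarylacetoacetase hereditary tyrosinaemia.

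All 5 genes had an ELT-3 summit in the promoter or the 3 kb upstream in the thresholded peak list, against 23% of all protein-coding genes. In the promoter 4 had one, against 15.5%. The exception, hpd-1, had its summits 1197 and 2074 bp before the start. The gst-42 summit, 2 bp past its start, counts as upstream only because the promoter is included. The strongest promoter peak was that of hgo-1, with a signal of 245, the 28th highest of 4530. The signal is the authors' own value per peak, on a scale that is not stated, and serves to rank peaks. Ranks count from 1 at the highest signal of a list.

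The sequences at the summits are shown because GATA factors bind short words that can be read directly. Each run covers the summit and the 50 bp on both sides of it, in the thresholded list, and is written 5′ to 3′ on the strand of the gene, from the RefSeq sequence of the WBcel235 assembly, which is ce11. Capitals mark the word AGATAA, the word AGATAG, the word TGATAA and the word TGATAG, or their reverse complements, here called GATA words. The tatn-1 run is chrX:14790523-14790623 on the plus strand, and the hpd-1 runs are chrIII:10533402-10533502 and chrIII:10534279-10534379 on the plus strand. The fah-1 run is chrX:6449061-6449161 on the minus strand. The gst-42 run is limited to the 48 bases before the transcript start, chrX:11727937-11727984 on the minus strand. The last run carries no GATA word and stands beside those that do.
tatn-1 promoter peak: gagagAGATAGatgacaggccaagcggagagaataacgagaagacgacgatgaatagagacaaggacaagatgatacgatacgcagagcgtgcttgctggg
hpd-1 far upstream peak: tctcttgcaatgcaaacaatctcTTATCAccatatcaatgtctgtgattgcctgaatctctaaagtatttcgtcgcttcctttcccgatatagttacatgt
hpd-1 nearer upstream peak: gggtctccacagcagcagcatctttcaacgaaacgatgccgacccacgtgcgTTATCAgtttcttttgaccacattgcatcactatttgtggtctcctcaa
gst-42 promoter peak, part before the start: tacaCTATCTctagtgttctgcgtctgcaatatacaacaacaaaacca
fah-1 promoter peak: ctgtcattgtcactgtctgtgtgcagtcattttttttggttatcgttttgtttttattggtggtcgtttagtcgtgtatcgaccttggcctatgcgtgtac

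Of the 7 thresholded peaks in the 3 regions of these genes, 6 had a GATA word within 50 bp of the summit. The share was 37.8% over all 4530 thresholded peaks, 31.5% over the 2587 with a summit in a promoter, and 22.1% over windows of the same width centred 200 bp upstream of the first start of every protein-coding gene. Each of the 5 genes had a GATA word at 1 or more of its peaks, a count for which no share of all genes was made. For fah-1 the word was at the farther and weaker peak only, 47 bp after the summit. The gst-42 peak had 2 words, 1 of which is in the printed bases, 43 bp before the summit, and the other 26 bp after it in exon 1. The other 5 peaks with a word had 1 each. At the strongest promoter peak of a gene, 3 of 4 genes had a GATA word, tatn-1, hgo-1 and gst-42. At the summits of replicate 1 alone these were hgo-1 and gst-42, and at those of replicate 2 alone hgo-1, gst-42 and fah-1, so tatn-1 had its word at the pooled summit only. In hpd-1, which had no promoter peak, the words lay 24 bp before the far summit and 5 bp after the nearer one. The hgo-1 word lay 39 bp before its summit and the tatn-1 word 42 bp before it. No word at these 3 promoter summits was within 25 bp. A match is a description of letters and does not show that ELT-3 touched it.

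Other words were sought in the same windows on both strands. GAGAGA, a repeat of the type bound by GAGA factors in flies, was found at 2 of the 7 peaks. With overlapping matches counted, it was found 3 times at tatn-1 and 2 times at the farther fah-1 peak. Both peaks hold matches that overlap each other, and at tatn-1 a match also overlaps the GATA word. It was found at 24.6% of all thresholded peaks, 22.9% of those in promoters and 7.48% of the windows upstream of all coding genes. CTGCGT was found at 2 of the 7 peaks, those of tatn-1 and gst-42, against 12% of all thresholded peaks, 14.1% of those in promoters and 2.93% of the upstream windows. The nearer fah-1 peak had none of the 3 kinds of word.

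**Figure D1:**
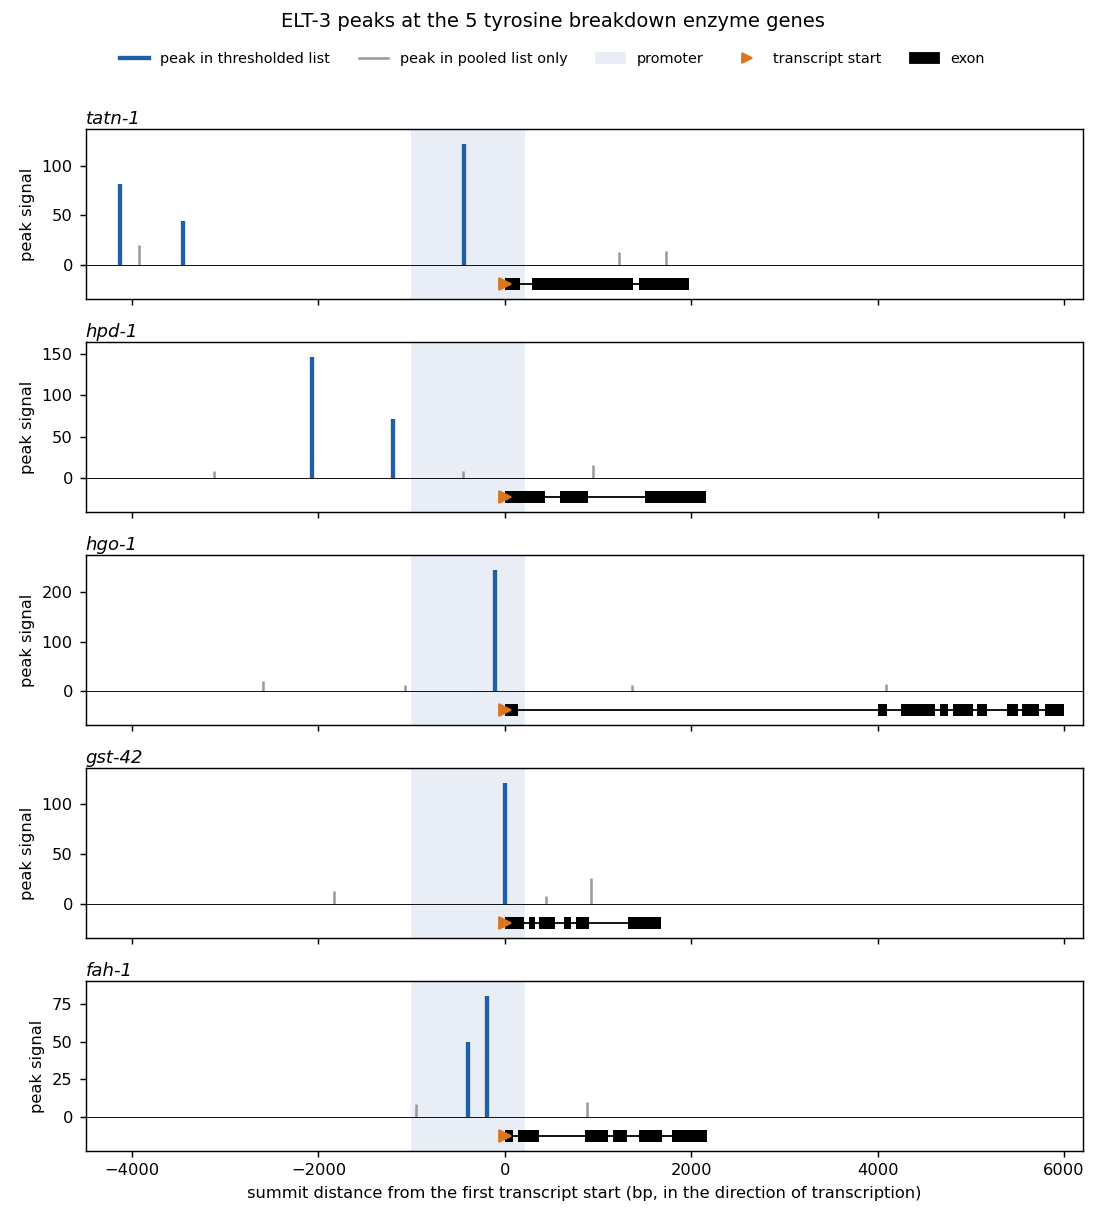
Height of each stem is the deposited peak signal of the pooled list, and the horizontal axis is the distance of the summit from the first transcript start in bp, positive in the direction of transcription, with the gene model under each panel. Dark stems are in the thresholded list and grey stems only in the larger pooled list. The highest stems of tatn-1, hgo-1, gst-42 and fah-1 stand in the shaded promoter, and those of hpd-1 stand 1197 and 2074 bp before the start.

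A larger share of the enzyme genes than of all genes was marked. In the thresholded list 4 of 5 had a promoter summit, against 15.5% of all protein-coding genes, 3086 of 19973. Within 3 kb upstream, the promoter included, 5 of 5 had a summit, against 23%. Here gst-42 counts through its summit just past the start. In any of the promoter, the introns and the 3 kb upstream 5 of 5 had one, against 23.9%. Both hpd-1 and fah-1 had 2 summits within 3 kb, so 2 of 5 did, against 4.41% of all genes. Neither pair was matched by separate peaks in both replicates. The fah-1 pair overlapped a single peak in each replicate list, and no replicate 2 peak overlapped the nearer hpd-1 peak. An intron held a summit in 0 of 5, against 3.82%. The same 4 genes had a promoter summit when the 4530 strongest peaks of each replicate were read alone, against 15.8% of all genes in replicate 1 and 14.1% in replicate 2. The genes were chosen with earlier results of these data known, so these shares carry no test.

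The share of these peaks that overlapped both replicates was not above that of the whole list. Of the 7 peaks, 6 overlapped a peak in the list of each replicate, and 7 were among the 4530 strongest of replicate 1 and 6 among those of replicate 2. The single exception was the nearer upstream peak of hpd-1. Over the whole thresholded list 4349 peaks, 96%, overlapped both replicate lists. Both fah-1 peaks overlapped the same peak of each replicate, so that peak is counted more than once. No share over all thresholded peaks is given for the counts among the strongest of each replicate. The signal in the pooled list was close to the sum of the 2 replicate signals, with a median ratio of 0.989 and quartiles of 0.937 and 1.04, so a pooled value is to be read against a sum and not a mean.

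tatn-1 lies on chromosome X from 14791008 to 14792984 on the plus strand, and its 1 thresholded promoter peak had its summit at 14790573, 435 bp before the start, outside any annotated gene. Its signal was 62.2 in replicate 1, 63.9 in replicate 2 and 123 in the pooled list, where it ranked 453 of 4530. The replicates gave nearly equal values. Their summits were less alike, 29 and 108 bp from the pooled summit. The deposited peak was 84 bp wide, against a median of 320 bp in the list, and its summit was its last base. Beyond the 3 kb limit lay 2 more thresholded peaks, 3455 bp upstream with a signal of 44.9 and 4128 bp upstream with 81.8. Between these and the promoter peak the thresholded list held none.

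hpd-1 lies on chromosome III from 10535526 to 10537680 on the plus strand, and was the one gene of the 5 without a thresholded promoter summit. The stronger of its upstream peaks had a summit at 10533452, with a signal of 71.2 in replicate 1, 73.4 in replicate 2 and 146 in the pooled list, rank 242 of 4530. By signal it was above every promoter peak of the group except that of hgo-1. It stood in intergenic sequence, 2074 bp before hpd-1 and 747 bp past the end of unc-49, which encodes a GABA receptor and lies on the same strand. The nearest coding start was one of unc-49, 2019 bp away, so the peak cannot be given to hpd-1 by position alone. The second summit, at 10534329, was nearest to hpd-1 and lay outside the promoter as defined, 1197 bp before the start. Its signal was 64.2 in replicate 1 and 70.6 in the pooled list, and no peak of replicate 2 overlapped it. In the whole pooled list, which also holds weak peaks, hpd-1 had a promoter summit 445 bp upstream with a signal of 8.71, rank 24181 of 26508.

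hgo-1 lies on chromosome I from 9049460 to 9055457 on the minus strand. Its promoter peak had a summit at 9055567, 110 bp before the start, with a signal of 105 in replicate 1, 140 in replicate 2 and 245 in the pooled list. It ranked 97 of 30000 in replicate 1, 23 of 27330 in replicate 2 and 28 in the pooled list. The replicate summits were 0 and 2 bp from the pooled one, the closest of the 7 peaks. The gene starts back to back with spe-46, a gene of the spermatogenesis-defective class. The 2 starts are 836 bp apart, and the summit was also in the promoter of spe-46, 726 bp before its start. The summit was nearer to hgo-1, and the lists do not say which gene, if either, responds to it.

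gst-42 lies on chromosome X from 11726264 to 11727936 on the minus strand. Its peak had a summit at 11727934, 2 bp past the start and thus in exon 1, with a signal of 56.8 in replicate 1, 63.9 in replicate 2 and 122 in the pooled list, rank 465 of 4530. It was shared with the divergent gene D1053.2, whose start is 215 bp away from that of gst-42 and 217 bp from the summit. The replicate summits were 6 and 18 bp from the pooled one. The peak thus covered the start of gst-42 in both replicates, and its signal was close to that of tatn-1.

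fah-1 lies on chromosome X from 6446746 to 6448916 on the minus strand, and its promoter held 2 thresholded summits, at 6449111 and 6449310. They lay 195 and 394 bp before the start, with pooled signals of 80.4 and 49.5 and ranks of 1345 and 2997 of 4530. Each replicate list held a single peak there, which overlapped both pooled peaks. Its signal was 34.5 in replicate 1 and 60.7 in replicate 2. The replicate 1 summit was 39 bp from the nearer pooled summit and the replicate 2 summit 32 bp from the farther one, so the pooled list had 2 summits where each replicate had 1. The next gene upstream is grl-6, of the ground-like family, on the same strand.

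**Figure D2:**
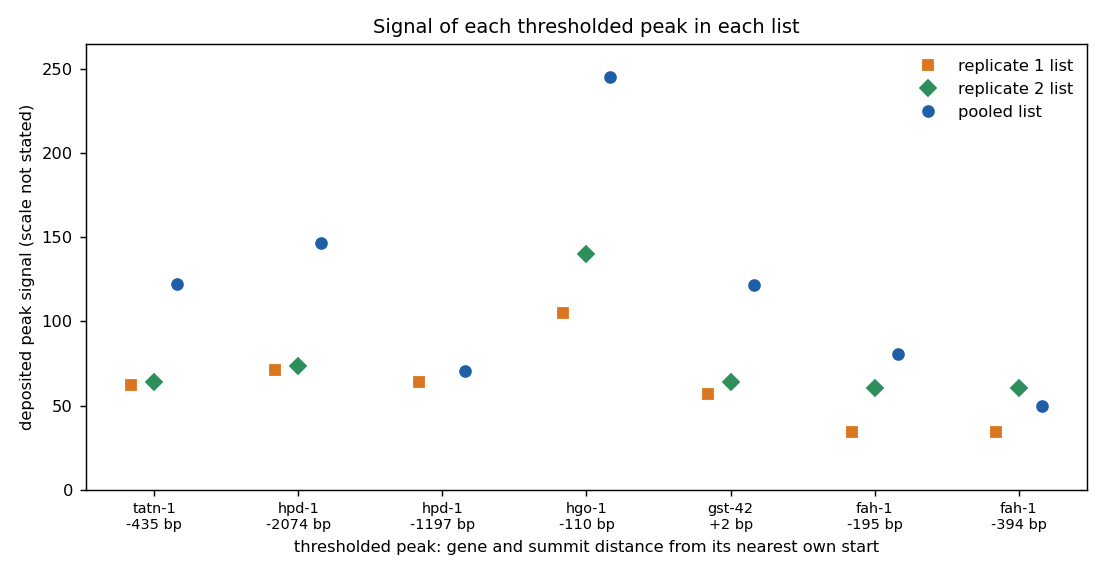
Deposited peak signal (vertical axis, scale not stated) of the 7 thresholded peaks in the replicate 1, replicate 2 and pooled lists, with 1 point per list and peak. The hgo-1 peak is highest in all 3 lists, the hpd-1 peak at 1197 bp has no replicate 2 point, and both fah-1 peaks overlap the same single peak of each replicate.

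The order of the 4 strongest promoter peaks was hgo-1, tatn-1, gst-42 and fah-1 in the pooled list. hgo-1 was highest in each replicate, and its lower replicate value, 105, was above the higher value of each of the other genes. tatn-1 and gst-42 were close, with pooled signals of 123 and 122. Their replicate values were 62.2 and 63.9 for tatn-1 and 56.8 and 63.9 for gst-42, too few to tell whether these genes differ. fah-1 was lowest in both replicates. Its replicate 2 value of 60.7 was close to those of tatn-1 and gst-42, and its replicate 1 value of 34.5 was not.

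Among the 3086 genes with a thresholded promoter summit the strongest promoter signal had a median of 63.3 and quartiles of 46.8 and 91.9. All 4 enzyme genes with such a summit were above the median, and hgo-1, tatn-1 and gst-42 were above the upper quartile. hgo-1 ranked 25 of these genes, above 99.2% of them. tatn-1 ranked 335, above 89.2%, and gst-42 346, above 88.8%. fah-1 ranked 1047, above 66.1%. The 4 genes were thus spread over the upper part of the marked genes.

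**Figure D3:**
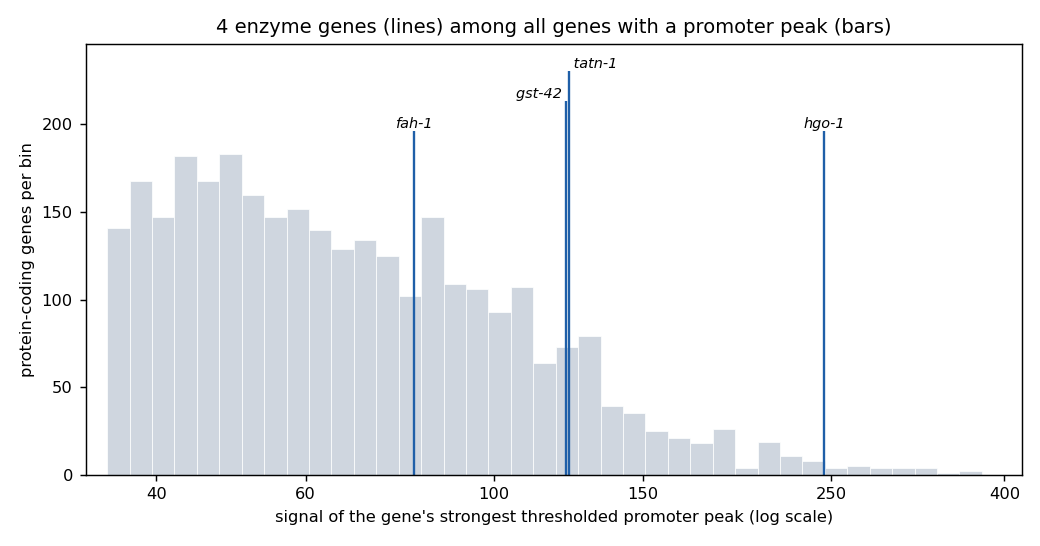
Bars count protein-coding genes by the signal of their strongest thresholded promoter peak (log scale), over all 3086 genes with one, and blue lines mark 4 enzyme genes. fah-1 at 80.4 lies right of the median of 63.3, gst-42 at 122 and tatn-1 at 123 lie beyond the upper quartile of 91.9, and hgo-1 at 245 lies in the thin upper tail.

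The replicates did not weight all peaks alike. Over the thresholded peaks found in both lists, the median log2 ratio of replicate 2 to replicate 1 signal was -0.24, with quartiles of -0.94 and 0.48. The promoter peak of tatn-1 had 0.04, the far peak of hpd-1 0.04 and the peak of gst-42 0.17. hgo-1 had 0.41. These were inside the quartiles of all peaks. The fah-1 promoter, at 0.81, was above the upper quartile. The libraries differ in ways the lists do not record, and the depth behind each signal is unknown.

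**Figure D4:**
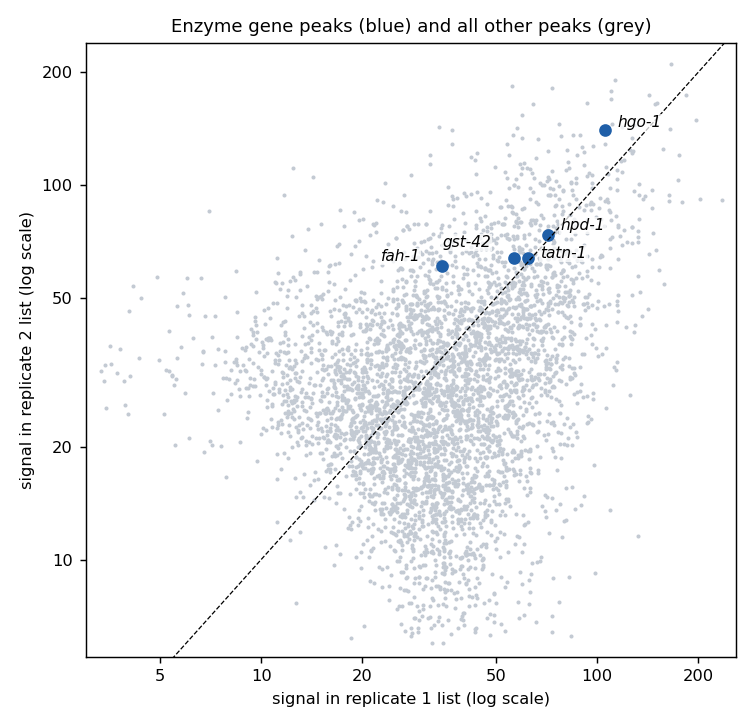
Signal of thresholded peaks in the replicate 2 list (vertical, log scale) against the replicate 1 list (horizontal, log scale), with the enzyme gene peaks in blue, all other peaks in grey and equal values on the dashed line. hgo-1 stands at the upper right, tatn-1, hpd-1 and gst-42 lie close to the line, and fah-1 lies above it.

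Genes whose strongest promoter peak had the most similar signals were sought over 2972 genes, by the sum of the absolute log2 differences over the pooled, replicate 1 and replicate 2 lists. For tatn-1 these were sod-4, an extracellular superoxide dismutase gene, at 0.14, and sma-9, which encodes a zinc finger protein of body size control, at 0.14. For hgo-1 they were H10E21.1 and nhr-80, a nuclear hormone receptor gene, which share 1 peak, at 0.19. For gst-42 they were Y111B2A.12, at 0.04, and sod-4, at 0.10. For fah-1 they were R31.2, at 0.15, and cal-5, at 0.17. hpd-1 had no promoter peak to compare. Between tatn-1 and gst-42 the sum was 0.14 as well, just above that of sma-9.

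Biopterin is the cofactor of the aromatic amino acid hydroxylases, among them that of dopamine synthesis, which acts on tyrosine. All 4 genes of biopterin synthesis and recycling had a thresholded promoter summit. The strongest was that of qdpr-1, which encodes dihydropteridine reductase, with a signal of 94.3. ptps-1, for pyruvoyltetrahydropterin synthase, had 87.2, pcbd-1, for pterin carbinolamine dehydratase, 82.9, and cat-4, for GTP cyclohydrolase, 50.5. Their range held the 80.4 of fah-1 and was below those of hgo-1, tatn-1 and gst-42. The qdpr-1 peak was shared with dnj-17 and the pcbd-1 peak with hrde-4.

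Other enzymes that use aromatic amino acids were marked in part. Of 10 genes, which include the tyrosinases and the hydroxylases of dopamine and serotonin synthesis, 3 had a promoter summit and 4 one within 3 kb. The 3 were the tyrosinase genes tyr-1, with a signal of 83.8, and tyr-4, with 48.3, and bas-1, for aromatic amino acid decarboxylase, with 38.7. Of 7 tryptophan breakdown genes, 3 had a promoter summit and 4 one within 3 kb. tdo-2, for tryptophan dioxygenase, had a signal of 158, kynu-1, for kynureninase, 104 and nkat-3, for a kynurenine aminotransferase, 54.4. The tdo-2 peak was also in the promoter of C28H8.2 and the nkat-3 peak in that of mocs-1. The tdo-2 value was above every promoter peak of the tyrosine breakdown genes except that of hgo-1.

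Of 11 genes of branched-chain amino acid and propionate breakdown, 6 had a promoter summit and 8 one within 3 kb. The strongest promoter peaks were those of dld-1, for dihydrolipoamide dehydrogenase, with a signal of 218, and pcca-1, for a subunit of propionyl-CoA carboxylase, with 106. Of 13 other amino acid breakdown genes, 8 had a promoter summit and 9 one within 3 kb. The strongest promoter peaks were those of got-2.2, for an aspartate aminotransferase, with 110, and gldc-1, for glycine decarboxylase, with 83.2. Over the 5 lists together 24 of 45 genes, 53.3%, had a promoter summit and 29, 64.4%, one within 3 kb. The 4 of 5 of the tyrosine breakdown genes thus stood beside a share of other amino acid genes that was itself above the 15.5% of all genes. A GATA word stood within 50 bp of the strongest promoter summit in 14 of these 24 genes, 58.3%, and in 3 of the 4 enzyme genes with a promoter summit.

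gst-42 belongs by sequence to the glutathione transferases, most of which act in detoxification. Of the 43 other genes of that family 6, 14%, had a promoter summit and 8 had one within 3 kb. The strongest were gst-20, with a signal of 84.1, and gst-27, with 62.9, and both were below the 122 of gst-42. The family's share was near that of all genes.

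**Figure D5:**
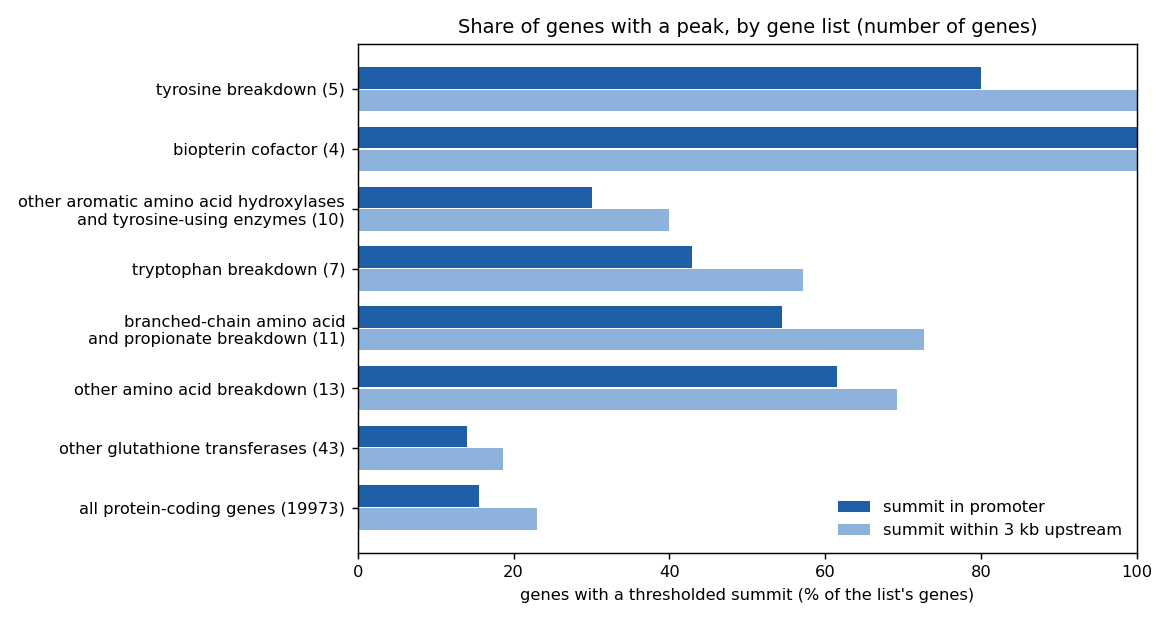
Share of the genes of each list (percent) with a thresholded ELT-3 summit in the promoter or within 3 kb upstream, with the number of genes in brackets. The 3 kb upstream includes the promoter. The tyrosine breakdown genes, 4 of 5 and 5 of 5, and the biopterin genes, 4 of 4 in both, are at the top, and the other glutathione transferases, at 14% in the promoter, are near all protein-coding genes, at 15.5%.

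The larger lists add weak peaks and separate the genes less. In the whole pooled list of 26508 peaks all 5 genes had a promoter summit, but so did 41.8% of all protein-coding genes. There hgo-1 had a summit 2594 bp upstream with a signal of 19.9, which was 24.9 in replicate 1, and gst-42 had one in an intron with 26.4. No replicate 2 peak overlapped either of these weak peaks. In each of the 4 lists the strongest peak in the 3 regions of hgo-1 was the one 110 bp or less before its start.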

How the data were processed

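Binding of ELT-3 was read from 4 peak lists on ce11, 1 for each biological replicate, 1 of the pool and 1 thresholded by the authors. Per the deposited file descriptions, the lists were made from alignments and a control, while no aligner, caller or version is named in the sources used here. Each peak's deposited signal is the authors' value on an unstated scale. The deposited −log10 q was at the highest value of the thresholded list, 3.86, for 3584 of its 4530 peaks, all 7 described here included, so signal was used for ranks. The thresholded list was made of the 4530 pooled peaks with the highest signal (35.2 to 382, median 59.9). Of the 6 genes that the choice of members named, 1 is not reported here. Reads were not analysed, so depth is unknown. The 4 ce10 lists were not used, since the gene models are on ce11.

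Summits were placed on coding transcripts of Ensembl release 115 for WBcel235, with coordinates from 1. Introns were bases that no exon of the gene covers. Peaks were matched between lists by an overlap of 1 bp or more. Words on either strand up to 50 bp from a summit were counted. No test was made, and the members and the gene lists were chosen with earlier results of these data known. Named were the members, genes sharing a promoter peak with them, the 2 strongest genes of each list (all, if 5 or fewer had a promoter peak) and the 2 genes most like each member. Alternatives covered a stricter and a larger list, each replicate alone, other promoter and word windows, overlap in place of summits, the nearest start only, the longest transcript only, and the lists without peaks up to 20 kb from elt-3 or unc-119. Placement was tested on simulated data and returned 100 of 100 promoter summits, 200 of 200 summits within 3 kb and 250 of 250 GATA words. Python 3.11.15, numpy 2.4.6 and matplotlib 3.10.9 were used.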

Additional observations from a re-analysis of the deposited data

How the results depend on the processing

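Of 42 values recomputed under the alternatives, 32 were labelled the same, among them counts that changed slightly. Those labelled as moved, 8 in number, were signals of single replicates, which lie below a pooled signal close to their sum by construction. The remaining changes were 1 weaker count, of GATA words within 25 bp, and 1 stronger count, of intronic summits in the whole pooled list. The 4 genes with a promoter summit were the same under the stricter list, either replicate alone, overlap in place of summits, a narrow promoter, the nearest start, the longest transcript and without peaks near elt-3 and unc-119, and hpd-1 made 5 in the whole pooled list. The count within 3 kb, the promoter included, was 5 under each setting run. Intronic summits were found in 3 of the 5 genes in the whole pooled list, where 23% of all coding genes have one, and in 0 in the thresholded list. With 25 bp on each side of the summit 0 of 4 strongest promoter peaks had a GATA word, against 3 with 50 bp and with 100 bp. The share over all promoter peaks was counted at 50 bp only, so the counts at 25 and 100 bp have none to stand beside. At the summits of replicate 2 alone 3 genes had one, hgo-1, gst-42 and fah-1, and of replicate 1 alone 2, hgo-1 and gst-42. Signal in single replicates ran from 62.2 to 63.9 for tatn-1, 105 to 140 for hgo-1, 56.8 to 63.9 for gst-42 and 34.5 to 60.7 for fah-1, against pooled values of 123, 245, 122 and 80.4. The pooled value was close to the sum of both replicates for tatn-1, hgo-1 and gst-42, and 0.844 of it for fah-1. As a ratio, the replicates of these 4 differed by the most at fah-1. No paired analysis was possible because there was 1 group. The unknown depth leaves the error of each signal unmeasured beyond the 2 replicates.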

Other observations

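A palindrome, CACGTG, was noticed in the sequences at the summits and then counted, so its choice followed the data and it carries no test. It stood within 50 bp of the summit at 3 of the 7 peaks, in 3 of the 5 genes. These were the nearer upstream peak of hpd-1, with its centre 3 bp before the summit, the hgo-1 peak, 13 bp after it, and the farther fah-1 peak, 13 bp before it. Each of these also had 1 GATA word. Of these peaks, that of hpd-1 overlapped no replicate 2 peak, and that of fah-1 shared its replicate peaks with the nearer fah-1 peak. The count per gene has no share over all genes to stand beside. tatn-1 and gst-42 had no CACGTG in these windows. At the strongest promoter peaks alone it was found in 1 of 4 enzyme genes, hgo-1, against 3 of 24 other amino acid genes, 12.5%. It was found at 7.17% of all thresholded peaks, at 6.07% of those in promoters and at 1.53% of the windows upstream of all coding genes. No factor was assigned to the word.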
